A study of Homo sapiens with 8 samples.

Results

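Histone lysine methyltransferases place methyl groups on lysines of histone H3 and H4, and lysine demethylases remove them, so that the marks found at active promoters (H3K4), in heterochromatin (H3K9), at Polycomb-silenced genes (H3K27), along transcribed gene bodies (H3K36 and H3K79) and across the cell cycle (H4K20) depend on the balance of both. The mRNA levels of 44 such genes were examined in U251 cells, a human glioblastoma cell line, after treatment with vehicle or LLY-283. The 44 genes were taken by symbol from the expression table and comprised 31 methyltransferases and core subunits of Polycomb repressive complex 2 (PRC2), 12 demethylases and the jumonji (JmjC) hydroxylase JMJD6. All 44 were found among the 61906 genes listed and all 44 were among the 14478 genes tested, which had a mean of at least 1 TPM (a share of the library's transcripts, corrected for transcript length).

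LLY-283 blocks the activity of PRMT5, the main source of symmetric dimethylarginine in cells, which, like the lysine methyltransferases, takes its methyl groups from S-adenosylmethionine. The 4 biological replicates of each group were wild-type U251 cells kept for 24 h with DMSO (the vehicle) or with LLY-283 at 100 nM. Their poly(A) RNA was sequenced (RNAseq). Both groups were the same unmodified cell line, with 1 dose and 1 time point. Lysine methyltransferases of the SET family carry out nearly all of the methylation described here, DOT1L being the exception without a SET domain. Demethylation is performed by the flavin-dependent LSD enzymes, which act on mono- and dimethyl lysine, and by the iron-dependent JmjC enzymes, which also act on trimethyl lysine. RNAseq measures the transcripts of these enzymes and neither their protein nor the marks themselves.

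Each library summed to 1000000 or 1000001 TPM, and TPM keeps no record of read number, so the depth is unknown and no counting interval can be given. Of 10 glial and glioma markers 8 reached 1 TPM, with OLIG2 and CHI3L1 below it, and their sum ranged from 7503 to 7684 TPM in the vehicle libraries and from 7195 to 7563 TPM in the LLY-283 libraries. The glial sum rests mostly on VIM and CD44, and 5 of the 8 glial markers tested were called (62.5%, beside 26.2% of all genes tested): SOX2 (log2 fold change -0.27, limma adjusted p = 0.000349), GFAP (-0.25), FABP7 (-0.21) and NES (-0.17) fell and CD44 (0.11, limma adjusted p = 0.0168) rose. The 4 decreases were called under each of the 20 alternatives listed with the processing and the increase under 14. Their part in the results below was not tested. The leukocyte list reached 1 TPM for 1 of 5 genes and the endothelial list for 1 of 4, and both sums stayed at or under 2.93 TPM in every library. The epithelial list reached 1 TPM for 2 of 4 genes, the keratins KRT8 and KRT18, with sums of 526 to 561 TPM in vehicle and 539 to 627 TPM in LLY-283 libraries. In a bulk culture, fewer cells of a kind and less RNA per cell cannot be told apart. The fourth LLY-283 replicate stood apart, with 71943 TPM from mitochondrial genes against 101536 to 109954 TPM in the other 7 libraries, and of 13 mitochondrial mRNAs only MT-ND6 was called (-0.33, limma adjusted p = 0.000791). That library was also the lowest of its group for 27 of the 44 members, and its part in the results was not tested beyond the values given without it.

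Treatment with LLY-283 changed the mRNA of few of these genes, and by little. At an adjusted p under 0.05 (limma with Benjamini-Hochberg adjustment over all genes tested), 6 members rose, namely JMJD6, SETDB1, KDM5A, SETD2, SETD1A and ASH1L, and 3 fell, namely KDM1B, SUV39H2 and KDM4C. These 9 calls were 20.5% of the members, against a background of 26.2% of all genes tested, so that the share called was near that of other genes. By direction, 13.6% of the members were called higher against 8.61% of all genes tested, and 6.82% were called lower against 17.6%. No set test was made of this split, nor of any class or list of genes given below with its share called. The counts of 6 higher and 3 lower became 7 and 1 under quantile normalization, 9 and 2 under median-of-ratios scaling and 3 and 8 once trends with GC content and transcript length were taken out, so the split between directions depended on these choices. The shares of all genes moved as well, to 12.9% higher and 12.6% lower under quantile normalization, 13.3% and 12.9% under median-of-ratios scaling and 9.23% and 19.6% with the trends taken out.

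No member was called with a change above 1.5-fold, whereas 3.87% of all genes tested had both an adjusted p under 0.05 and a change of that size (0.394% higher and 3.48% lower). At an unadjusted p under 0.05 in limma there were 16 members, 10 higher and 6 lower, beside 38.6% of all genes. The log2 fold changes of the 44 members ran from -0.37 to 0.24, with a median of 0.02 beside -0.05 for all genes tested. Under quantile normalization the member median was 0.06 and that of all genes 0.01. With the GC and length trend taken out they were -0.0012 and -0.05. When 1 library was left out the member median ran from -0.0017 to 0.031. The median size of the change, whatever its sign, was 0.10 for the members and 0.13 for all genes. The groups did not overlap for 9 members (20.5%), of which 6 were higher and 3 lower, beside 29.2% of all genes (9.63% higher and 19.6% lower). Of these 9, the increases were the 6 called, and the decreases were KDM1B, SUV39H2 and KDM4B, the last of which did not pass the adjusted threshold.

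**Figure D1:**
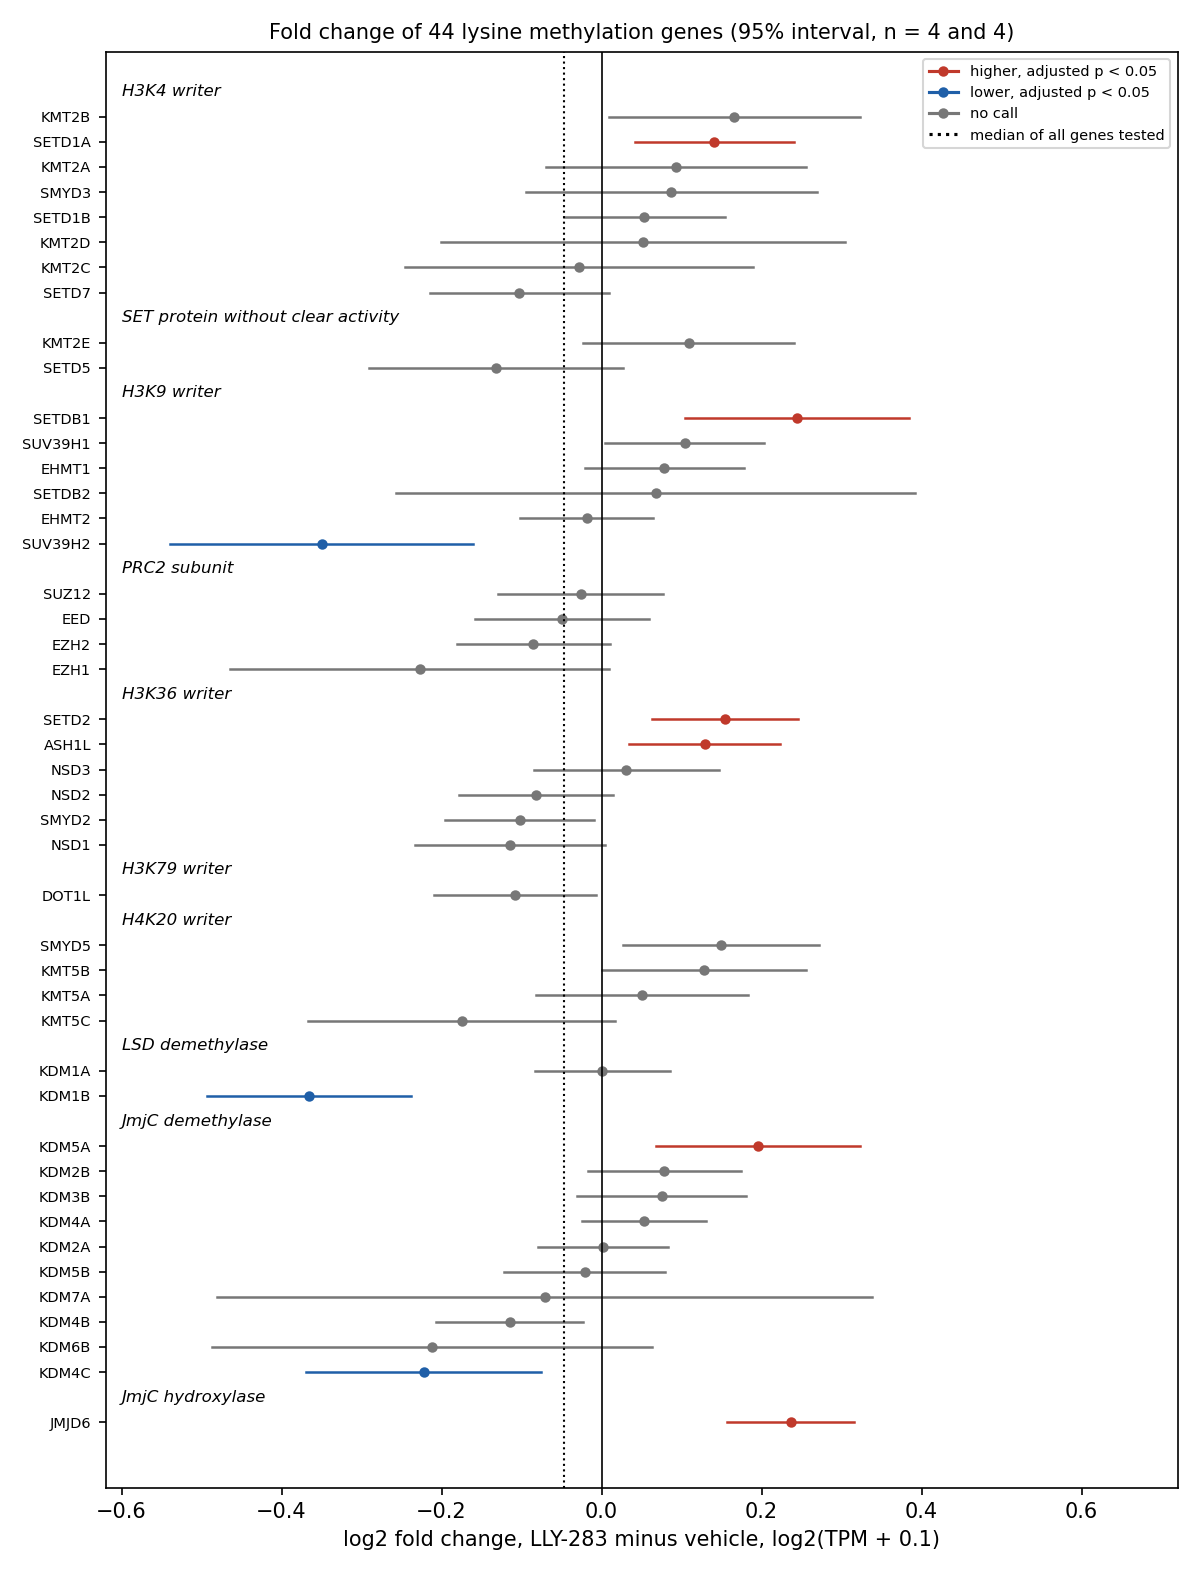
Log2 fold change (LLY-283 minus vehicle, on the log2(TPM + 0.1) scale) of the 44 genes by class, each point a gene and each bar its 95% interval from 4 libraries per group, with red for the 6 called higher, blue for the 3 called lower and grey for the rest. The points lie between -0.37 and 0.24, and the dotted line at -0.05 is the median of all genes tested.

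All 44 members together gave 1440 ± 29.0 TPM in vehicle and 1453 ± 33.5 TPM in LLY-283 libraries (SD, n = 4 each). Mean levels over the 8 libraries ran from 1.26 TPM for KDM7A, an H3K9 and H3K27 demethylase, to 131 TPM for KDM1A (LSD1), the H3K4 demethylase of the CoREST corepressor. The median member stood at 27.9 TPM and the median gene tested at 17.1 TPM. After KDM1A came NSD2 with 92.3 ± 4.06 TPM in vehicle and 87.3 ± 3.91 TPM in LLY-283 libraries, and then KMT5A with 80.5 ± 3.93 and 83.5 ± 6.53 TPM. Only KDM7A and SETDB2 lay under 5 TPM.

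**Figure D2:**
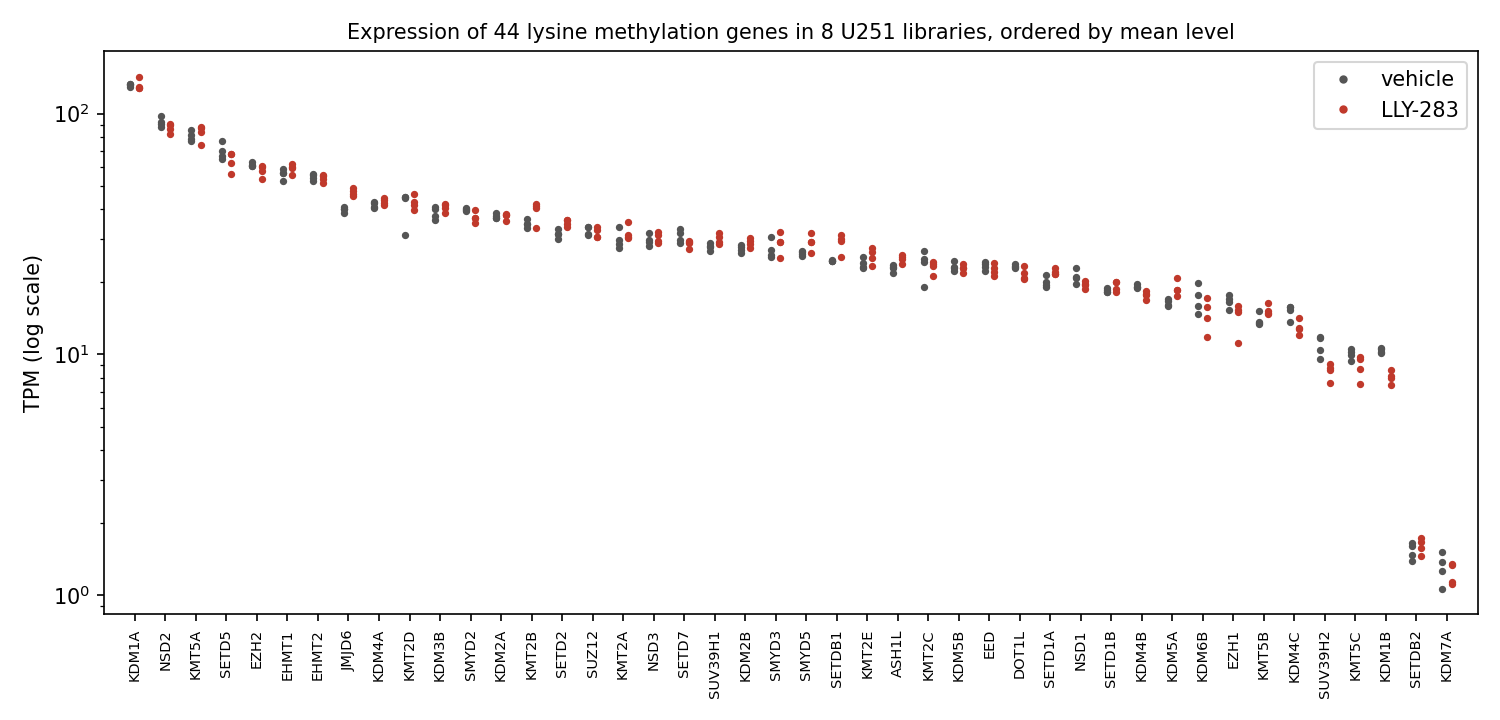
TPM (log scale) of the 44 genes in each of the 8 libraries, ordered by mean level, with vehicle in grey and LLY-283 in red. Mean levels of the genes span 1.26 to 131 TPM, and the distance between groups is small beside the distance between genes.

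The largest called decrease was that of KDM1B (LSD2; chromosome 6, 18155329 to 18223854, plus strand, GRCh38), the second flavin-dependent demethylase, which acts on H3K4 within transcribed genes. KDM1B measured 10.53, 10.13, 10.27 and 10.64 TPM in vehicle replicates 1 to 4, and 8.10, 7.49, 8.0 and 8.62 TPM in the LLY-283 replicates. Every treated library lay below every vehicle library. On the log2 scale KDM1B fell by 0.37 (SE 0.057, 95% interval -0.49 to -0.24, limma adjusted p = 0.00179), or 22.4% lower. KDM1B was called under all 20 alternatives and after leaving out each library in turn. KDM1A, its paralog, measured 131 ± 1.73 TPM in vehicle and 132 ± 6.94 TPM in LLY-283 libraries, with overlapping groups. The summed LSD level was 142 ± 1.94 TPM against 140 ± 7.34 TPM.

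SUV39H2 (chromosome 10, 14878820 to 14904315, plus strand), which trimethylates H3K9 in pericentromeric heterochromatin together with its paralog SUV39H1, had the next largest decrease. Its level was 11.7, 9.56, 11.8 and 10.4 TPM in the vehicle replicates and 8.60, 9.08, 7.60 and 8.74 TPM in the LLY-283 replicates. The groups did not overlap, although the highest treated library and the lowest vehicle library were only 9.08 and 9.56 TPM. SUV39H2 fell by 0.35 on the log2 scale (SE 0.084, limma adjusted p = 0.0145) and was called in 18 of 20 alternatives (limma adjusted p up to 0.0640), with quantile normalization among the exceptions.

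SETDB1 (chromosome 1, 150926263 to 150964744, plus strand), the H3K9 trimethylation enzyme recruited by TRIM28 to silence retroelements, had the largest called increase. The 4 vehicle libraries were nearly the same, at 24.5, 24.4, 24.6 and 24.3 TPM, and the LLY-283 libraries held 31.5, 29.5, 30.1 and 25.3 TPM. The fourth treated replicate, the library that stood apart, lay just above the vehicle range, and the other 3 lay well above it. The log2 fold change was 0.24 (SE 0.062, 95% interval 0.10 to 0.38, limma adjusted p = 0.0186) with all libraries and 0.31 (limma adjusted p = 0.000537) without the fourth LLY-283 replicate. Without the third LLY-283 replicate the limma adjusted p was 0.05003, and the call held in 18 of 20 alternatives (limma adjusted p up to 0.0556).

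RefSeq promoter sequences (GRCh38.p14) were available for 40 of the 44 members, with no entry for DOT1L, JMJD6, NSD3 and SETD1B. The upstream sequences of SETDB1, KDM1B and SUV39H2, 3 of the 4 members with the largest called changes, are shown from the 250 bases before the first listed start, restricted to bases outside every annotated exon. They are chr1:150926013-150926262 for SETDB1, chr6:18155172-18155328 for KDM1B and chr10:14878728-14878819 for SUV39H2, all on the plus strand and written 5′ to 3′. The first listed start of KDM1B and SUV39H2 lies inside the gene span of the annotation used for the positions above, and an exon of a divergent transcript covers the far end for SUV39H2, so their stretches are shorter. Capitals mark matches to the motif letters searched.
SETDB1: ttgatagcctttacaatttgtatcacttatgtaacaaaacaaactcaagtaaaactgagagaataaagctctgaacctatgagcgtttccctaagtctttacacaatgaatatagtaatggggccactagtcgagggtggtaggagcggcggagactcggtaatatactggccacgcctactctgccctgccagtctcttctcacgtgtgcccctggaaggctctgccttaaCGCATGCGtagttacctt
KDM1B: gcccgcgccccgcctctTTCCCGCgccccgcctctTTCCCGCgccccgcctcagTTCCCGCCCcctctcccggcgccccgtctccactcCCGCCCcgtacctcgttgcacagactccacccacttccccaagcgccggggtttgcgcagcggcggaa
SUV39H2: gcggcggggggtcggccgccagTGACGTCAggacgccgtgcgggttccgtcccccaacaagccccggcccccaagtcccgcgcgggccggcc

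Letters of known motifs were searched on both strands of the 250 bases, namely E2F (TTCCCGC and TTGGCGC), NRF1 (GCATGCG), ETS (CCGGAAG), NFY (CCAAT), SP1 (GGGCGG), YY1 (AGATGGC), CREB (TGACGTC), ZNF143 (ACTACAA) and the TATA box (TATAAA). In SETDB1 the NRF1 letters GCATGCG were found on both strands, overlapping each other, 17 and 18 bases before the start. KDM1B held the E2F letters TTCCCGC at 233, 215 and 196 bases before its start, and the last of these overlapped a match to the SP1 letters GGGCGG on the opposite strand. In SUV39H2 the CREB letters TGACGTC were found on both strands, also overlapping, 116 and 115 bases before the start. Further matches to the SP1 letters lay 161 and 86 bases before the start in KDM1B, and 199 and 44 bases before it in SUV39H2. Some of these fall outside the stretches printed. The same E2F letters occurred in 7.5% of member promoters (KDM1B, NSD2 and SUZ12) and in 5.59% of 27305 promoters. The NRF1 letters occurred in 10.0% of member promoters against 3.57%, and the CREB letters in 5.0% against 3.29%. For ETS the shares were 10.0% and 8.82%, for the second E2F form 2.5% and 2.63%, for YY1 2.5% and 3.40%, and for ZNF143 0 of 40 and 2.64%.

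By base composition the member promoters were rich in CpG, with a median of 25 CpG and 68.2% GC over the 250 bases, beside 11 CpG and 58.0% GC for all promoters. The SP1 letters were present in 30 of 40 member promoters (75.0%) and in 42.3% of all, while the TATA box letters TATAAA were present in 0 of 40 and in 11.1% of all. The NFY letters CCAAT were found in 30.0% and 33.0%. The 3 promoters shown differed widely from each other, with 46.0% GC and 9 CpG for SETDB1, 73.6% and 30 for KDM1B, and 79.6% and 38 for SUV39H2 over the whole 250 bases. A match is a description of the letters in this window and was not tied to any measurement of binding.

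Among the H3K4 methyltransferases 1 of 8 rose (12.5%, beside 8.61% of all genes) and none fell (beside 17.6%). SETD1A (chromosome 16, 30957294 to 30984664), which with SETD1B makes most promoter H3K4 trimethylation, measured 19.1, 19.5, 21.3 and 19.9 TPM in vehicle and 21.7, 22.8, 21.6 and 22.0 TPM in LLY-283 libraries. The groups did not overlap, the highest vehicle library being 21.3 TPM and the lowest treated library 21.6 TPM. SETD1A rose by 0.14 on the log2 scale (SE 0.044, limma adjusted p = 0.0431). This call was close to the threshold and was lost when any 1 library other than vehicle replicate 3 was left out (limma adjusted p up to 0.109). It was also lost without a filter on low values, with a replicate block and with mitochondrial genes left out. Taking out the GC and length trend lost it too, and the call held in 8 of 20 alternatives (limma adjusted p from 0.01003 to 0.1383). SETD1B was 18.5 ± 0.37 TPM against 19.2 ± 0.907 TPM.

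The KMT2 enzymes, of which KMT2A and KMT2B act with menin and KMT2C and KMT2D monomethylate H3K4 at enhancers, gave no call. KMT2B was 34.9 ± 1.25 TPM in vehicle and 39.3 ± 3.97 TPM in LLY-283 libraries (log2 fold change 0.17, limma adjusted p = 0.112). It was called higher without the fourth LLY-283 replicate and under median-of-ratios scaling (limma adjusted p = 0.00209 and 0.0446). KMT2A, KMT2C and KMT2D were at 30.0, 23.7 and 41.5 TPM in vehicle and 32.0, 23.1 and 42.6 TPM in LLY-283 libraries, within the spread of the replicates. SETD7, a monomethyltransferase with many non-histone substrates, was 30.9 ± 1.87 against 28.8 ± 1.01 TPM, and SMYD3 was 27.3 ± 2.40 against 29.0 ± 2.84 TPM. Together the 6 KMT2 and SETD1 enzymes summed to 169 ± 12.9 TPM and 178 ± 9.84 TPM.

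KMT2E and SETD5, SET proteins for which no clear histone activity is known, were not called. SETD5 gave 66.8, 65.0, 76.6 and 69.7 TPM in vehicle and 68.2, 62.1, 67.8 and 56.1 TPM in LLY-283 libraries, with overlapping groups (log2 fold change -0.13, limma adjusted p = 0.202), and the difference shrank to -0.07 without the fourth LLY-283 replicate and to -0.08 without the third vehicle replicate. KMT2E gave 24.0, 22.9, 25.3 and 23.1 TPM in vehicle and 27.7, 25.2, 26.7 and 23.4 TPM in LLY-283 libraries, also with overlap (0.11, SE 0.059, limma adjusted p = 0.202), and was called higher without the fourth LLY-283 replicate (limma adjusted p = 0.0471), whereas the difference was 0.07 without the first. COMPASS is the complex in which the KMT2 and SETD1 enzymes work, and of 13 partner genes tested 2 rose and 2 fell (30.8% called, near the 26.2% of all genes). The largest of each were RBBP5, a core subunit, at 17.4 ± 0.626 against 20.1 ± 0.597 TPM (log2 fold change 0.21, limma adjusted p = 0.00726), and PAGR1, a subunit of the KMT2C and KMT2D complexes, at 21.3 ± 0.879 against 17.4 ± 0.535 TPM (-0.29, limma adjusted p = 0.00168).

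The 6 H3K9 methyltransferases held 1 increase and 1 decrease, SETDB1 and SUV39H2 (33.3% called, beside 26.2% of all genes). Their summed level was 172.65 to 179.47 TPM in vehicle and 180.58 to 184.17 TPM in LLY-283 libraries. These sums did not overlap, as was so for 29.2% of single genes tested. The sums of the other classes of several genes overlapped. SUV39H1 was 28.0 ± 0.922 against 30.2 ± 1.43 TPM (log2 fold change 0.10, limma adjusted p = 0.114). EHMT1, which with EHMT2 makes the GLP and G9a dimer for H3K9 dimethylation, was 56.1 ± 2.60 against 59.2 ± 2.51 TPM, and EHMT2 was 54.6 ± 1.65 against 53.9 ± 1.93 TPM. SETDB2 was near the filter at 1.52 ± 0.117 and 1.6 ± 0.117 TPM. Of 11 partners of these enzymes, CBX5, the heterochromatin protein HP1 alpha that binds methylated H3K9, was the only one called (9.09%, beside 26.2% of all genes), at 46.1 ± 3.38 against 52.5 ± 2.14 TPM (0.19, limma adjusted p = 0.0290).

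PRC2 methylates H3K27, and none of its 4 core genes was called (beside 26.2% of all genes). All 4 had a negative log2 fold change, with a median of -0.07 beside -0.05 for all genes tested, but the sign for SUZ12 was positive under quantile normalization and median-of-ratios scaling. EZH2, the main catalytic subunit of dividing cells, was at 60.4, 60.8, 61.2 and 63.1 TPM in vehicle and 60.5, 58.0, 59.9 and 53.3 TPM in LLY-283 libraries. The lowest value was the fourth LLY-283 replicate, and the groups overlapped (log2 fold change -0.09, 95% interval -0.18 to 0.01, limma adjusted p = 0.173, and -0.05 without that library). EZH1, the alternative catalytic subunit, had the smallest p of the class, with 15.3, 17.0, 17.7 and 16.5 TPM in vehicle and 14.9, 15.3, 15.8 and 11.1 TPM in LLY-283 libraries.

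Again the fourth LLY-283 replicate was the lowest for EZH1, and the log2 fold change of -0.23 (SE 0.106) had a limma adjusted p of 0.145 and was -0.11 without that library. EED, which reads trimethylated H3K27, was 23.3 ± 0.84 against 22.5 ± 1.19 TPM, and SUZ12 was 32.6 ± 1.35 against 32.0 ± 1.54 TPM. The 4 genes summed to 134 ± 1.39 TPM and 127 ± 7.22 TPM. Among 9 PRC2 partners 2 rose and none fell (22.2% called, near the 26.2% of all genes, of which 8.61% were higher), led by the histone chaperone RBBP4 at 231 ± 8.55 against 259 ± 4.99 TPM (0.17, limma adjusted p = 0.00481).

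Among the 6 H3K36 methyltransferases 2 rose (33.3%, beside 8.61% of all genes) and none fell (beside 17.6%). SETD2 (chromosome 3, 47016428 to 47164113, minus strand), the enzyme for H3K36 trimethylation along transcribed genes, gave 31.6, 30.0, 33.1 and 31.6 TPM in vehicle and 36.2, 34.7, 33.9 and 36 TPM in LLY-283 libraries. Every treated library was above 33.1 TPM, the highest vehicle library. SETD2 rose by 0.15 on the log2 scale (SE 0.041, limma adjusted p = 0.0212), and the call was lost without vehicle replicate 2, vehicle replicate 4 or LLY-283 replicate 1, with limma adjusted p up to 0.0572. It held in 16 of 20 alternatives (limma adjusted p up to 0.0775).

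ASH1L (chromosome 1, 155335268 to 155563162, minus strand), which dimethylates H3K36, gave 21.8, 22.9, 23.6 and 23.1 TPM in vehicle and 23.8, 24.9, 25.9 and 25.3 TPM in LLY-283 libraries. The groups were adjacent without overlap, at 23.6 and 23.8 TPM. ASH1L rose by 0.13 on the log2 scale (SE 0.042, limma adjusted p = 0.0481), and the call held only without LLY-283 replicate 1 among the 8 fits with 1 library left out (limma adjusted p up to 0.120). The call was lost too with a filter at 0.5 TPM or none, with eBayes without a trend, with the GC and length trend taken out and with mitochondrial genes left out, and held in 7 of 20 alternatives. The NSD enzymes, which also dimethylate H3K36, were not called. NSD1 was 21.1 ± 1.37 against 19.5 ± 0.649 TPM and NSD3 29.9 ± 1.61 against 30.5 ± 1.58 TPM. SMYD2, known also for methylating p53, was 39.9 ± 0.582 against 37.2 ± 1.95 TPM (log2 fold change -0.10, limma adjusted p = 0.0985), and was called lower without the second LLY-283 replicate (limma adjusted p = 0.0354). The 6 genes summed to 238 ± 7.92 TPM and 235 ± 5.30 TPM.

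DOT1L (chromosome 19, 2163933 to 2232578, plus strand), the H3K79 methyltransferase, measured 23.0, 22.9, 23.7 and 23.3 TPM in vehicle and 21.7, 20.8, 23.2 and 20.6 TPM in LLY-283 libraries. The other 3 treated libraries lay below all vehicle libraries and the third replicate lay within them. The log2 fold change was -0.11 (95% interval -0.21 to -0.01, limma adjusted p = 0.110). DOT1L was called lower without the third LLY-283 replicate and after removal of the GC and length trend. Of 6 DOT1L partner genes none was called by limma (beside 26.2% of all genes), and 1 had an unadjusted p under 0.05 (beside 38.6%).

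None of the 4 H4K20 methyltransferases was called (beside 26.2% of all genes). However, SMYD5 and KMT5B were called higher under median-of-ratios scaling, where 13.3% of all genes were called higher. KMT5B was also called higher under quantile normalization (12.9%) and SMYD5 without the third LLY-283 replicate (6.50%). SMYD5, described as an enzyme of H4K20 trimethylation, came closest, with 26.9, 26.1, 25.6 and 26.6 TPM in vehicle and 29.2, 29.4, 26.4 and 31.8 TPM in LLY-283 libraries. Its groups overlapped because the third treated replicate lay at 26.4 TPM (log2 fold change 0.15, limma adjusted p = 0.0711). KMT5B, an enzyme of di- and trimethylation, was 13.9 ± 0.850 against 15.2 ± 0.73 TPM, and KMT5C, its paralog, 10.0 ± 0.48 against 8.88 ± 1.03 TPM. KMT5A, which makes H4K20 monomethylation in the cell cycle, had a log2 fold change of 0.05 (95% interval -0.08 to 0.18). With 1 library left out this value ran from 0.02 to 0.11.

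**Figure D3:**
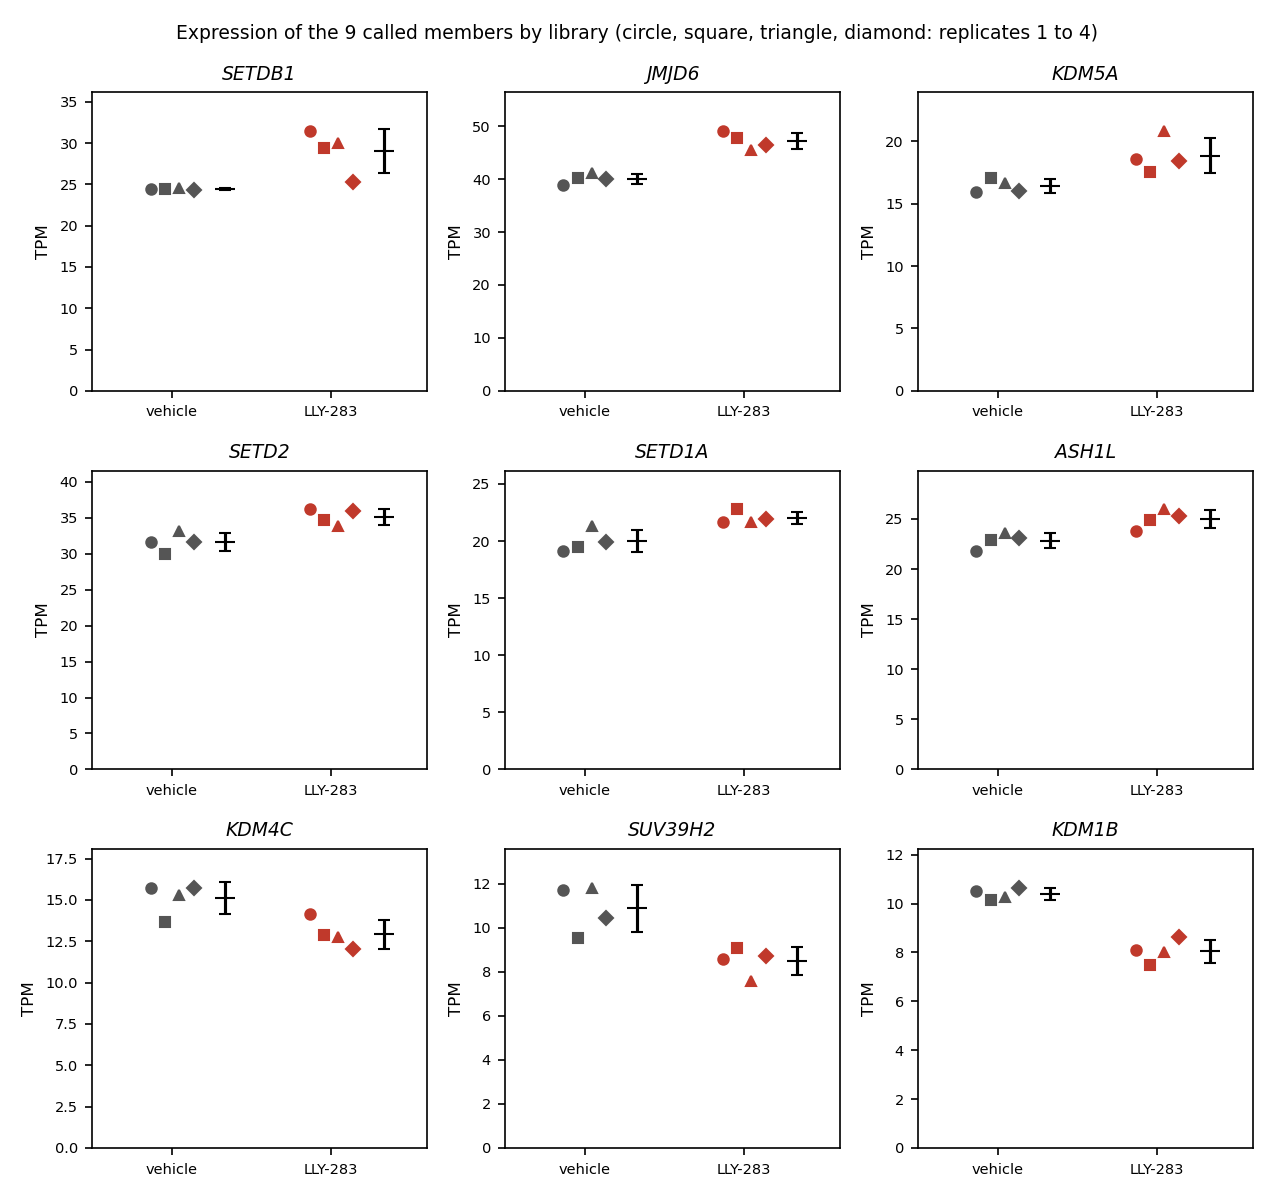
TPM of the 9 called members in each library (circle, square, triangle and diamond for replicates 1 to 4), with the mean and SD of each group as a bar and axes from 0. The groups overlap for KDM4C only, and the fourth LLY-283 replicate of SETDB1, at 25.3 TPM, lies next to the vehicle libraries.

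Of the 10 JmjC demethylases 1 rose and 1 fell (10.0% each, beside 8.61% higher and 17.6% lower of all genes). KDM5A (chromosome 12, 280057 to 389320, minus strand), which removes methyl groups from H3K4 trimethylation, measured 15.9, 17.1, 16.7 and 16.0 TPM in vehicle and 18.6, 17.6, 20.8 and 18.4 TPM in LLY-283 libraries. The second treated replicate, at 17.6 TPM, was the closest to the vehicle libraries, and the groups did not overlap. KDM5A rose by 0.20 on the log2 scale (SE 0.057, limma adjusted p = 0.0320). The call was lost without vehicle replicate 1, 3 or 4 or LLY-283 replicate 1 or 3 (limma adjusted p up to 0.0809). It was lost as well without a filter on low values, with a replicate block and with the GC and length trend taken out. The call held in 11 of 20 alternatives (limma adjusted p from 0.0085 to 0.128). KDM5B, its paralog among the members, was 23.1 ± 0.96 against 22.8 ± 0.847 TPM.

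KDM4C (chromosome 9, 6720863 to 7175648, plus strand) removes H3K9 and H3K36 trimethylation, as do KDM4A and KDM4B. KDM4C gave 15.7, 13.7, 15.3 and 15.7 TPM in vehicle and 14.1, 12.8, 12.7 and 12.01 TPM in LLY-283 libraries. These groups overlapped, since vehicle replicate 2 lay below LLY-283 replicate 1. The log2 fold change was -0.22 (SE 0.065, limma adjusted p = 0.0335), and the call held only without vehicle replicate 2 or LLY-283 replicate 1 among the 8 fits with 1 library left out (limma adjusted p up to 0.0887). KDM4C was not called under quantile normalization, where the log2 fold change shrank to -0.14 (limma adjusted p = 0.115), under median-of-ratios scaling (limma adjusted p = 0.0621) or without a filter on low values, and held in 10 of 20 alternatives. KDM4B was lower without overlap, at 19.1 ± 0.29 against 17.6 ± 0.65 TPM, but did not pass (log2 fold change -0.11, limma adjusted p = 0.0654). KDM4A was 41.6 ± 1.13 against 43.2 ± 1.14 TPM.

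Among the remaining JmjC demethylases, KDM6B, which removes H3K27 trimethylation, had the widest spread in TPM between replicates, at 17.0 ± 2.20 against 14.7 ± 2.30 TPM (log2 fold change -0.21, 95% interval -0.49 to 0.06). Its difference was -0.11 without the fourth LLY-283 replicate and -0.14 without the third vehicle replicate. KDM2A and KDM2B, H3K36 demethylases with CpG-binding domains, were 37.5 ± 0.87 against 37.5 ± 1.24 TPM and 27.5 ± 0.917 against 29.0 ± 1.19 TPM. KDM3B, an H3K9 demethylase, was 38.7 ± 2.16 against 40.7 ± 1.46 TPM. The 10 genes together held 237 ± 6.82 TPM and 239 ± 6.15 TPM. Of 12 other JmjC proteins, histone demethylases among them, 2 rose and 1 fell (25.0% called, near the 26.2% of all genes). The largest were RIOX2, a ribosomal oxygenase, with 0.28 (limma adjusted p = 0.0148), and JMJD4, a hydroxylase of a translation release factor, with -0.48 (limma adjusted p = 0.0136). The other increase was that of KDM5C, a further paralog of KDM5A, at 64.6 ± 1.89 against 71.2 ± 0.881 TPM (0.14, limma adjusted p = 0.00926). In the CoREST complex of KDM1A 1 of 9 partner genes was called (11.1%, beside 26.2% of all genes), HMG20B, at 114 ± 3.84 against 97.0 ± 3.36 TPM (-0.23, limma adjusted p = 0.00154).

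JMJD6 (chromosome 17, 76712832 to 76726799, minus strand) is a JmjC protein that hydroxylates lysines of splicing factors such as U2AF2 and has also been described as an arginine demethylase, an activity that is disputed. It gave 38.8, 40.2, 41.1 and 40.0 TPM in vehicle and 49.1, 47.8, 45.5 and 46.5 TPM in LLY-283 libraries. The lowest treated library, at 45.5 TPM, was well above the highest vehicle library, at 41.1 TPM. The log2 fold change was 0.24 (SE 0.035, 95% interval 0.16 to 0.32, limma adjusted p = 0.00144), or 17.8% higher, the smallest p of all members. JMJD6 was called under all 20 alternatives, with log2 fold changes of 0.22 to 0.28.

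METTL23, a gene for a methyltransferase that starts within 1 kb of JMJD6 on the opposite strand, went the other way, from 47.3 ± 1.61 to 30.8 ± 1.76 TPM (log2 fold change -0.62, limma adjusted p = 5.8e-05). In all, 18 members had a tested gene that overlapped them on the opposite strand or started divergently within 1 kb. Of 9 long noncoding neighbours tested none rose and 4 fell, beside 17.6% of all genes called lower, namely THUMPD3-AS1 across SETD5 (-0.99, limma adjusted p = 0.000433), LINC01089 beside SETD1B (-0.67, limma adjusted p = 0.00138), ARRDC1-AS1 beside EHMT1 (-0.54, limma adjusted p = 0.000229) and KDM2B-DT across KDM2B (-0.996, limma adjusted p = 0.0364), while SETD5, SETD1B, EHMT1 and KDM2B themselves were not called. Of 14 coding neighbours 2 fell, METTL23 and SRPK2, a kinase of splicing factors that overlaps KMT2E (-0.19, limma adjusted p = 0.0475). TPMT, divergent to KDM1B, had a log2 fold change of -0.01 (limma adjusted p = 0.857). CERS2, which overlaps SETDB1, had -0.07 (limma adjusted p = 0.0975), CCDC77, which overlaps KDM5A, had -0.05 and DCLRE1C, which overlaps SUV39H2, had -0.13. The strandedness of the counting was not stated, so reads of overlapping genes on opposite strands may be shared.

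The balance within paralog pairs was compared in each library as the ratio of their TPM, with 0.1 added to each. Apart from this small constant, such a ratio does not depend on how the library is scaled. Of 17 pairs, 5 had ratios that did not overlap between groups, beside 29.2% of single genes tested without overlap. No such share was taken for other pairs of genes. Each of the 5 had the smallest p that 4 against 4 libraries allow (two-sided exact permutation test, p = 0.0286). After Benjamini-Hochberg adjustment over the 17 pairs none was under 0.05 (adjusted exact p = 0.0971). With this design no pair could pass unless more pairs than these 5 reached that smallest p. The KDM1A to KDM1B ratio was 12.5, 12.6, 12.6 and 12.3 in vehicle and 15.6, 16.8, 16.0 and 16.3 in LLY-283 libraries, the tightest separation of the 17. The SUV39H1 to SUV39H2 ratio was 2.59 ± 0.344 in vehicle and 3.53 ± 0.239 in LLY-283 libraries, a log2 difference of 0.45.

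The KMT5B to KMT5C ratio was 1.39 ± 0.0526 and 1.72 ± 0.209, and no single one of the pair was called. In the KDM4 family the KDM4A to KDM4C ratio was 2.75 ± 0.154 and 3.33 ± 0.277, and the KDM4A to KDM4B ratio 2.17 ± 0.0872 and 2.44 ± 0.144. The EZH2 to EZH1 ratio overlapped, at 3.69 ± 0.222 and 4.08 ± 0.467 (exact permutation p = 0.171, adjusted 0.224). The KMT2A to KMT2B and NSD1 to NSD2 ratios had log2 differences of -0.07 and -0.03.

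**Figure D4:**
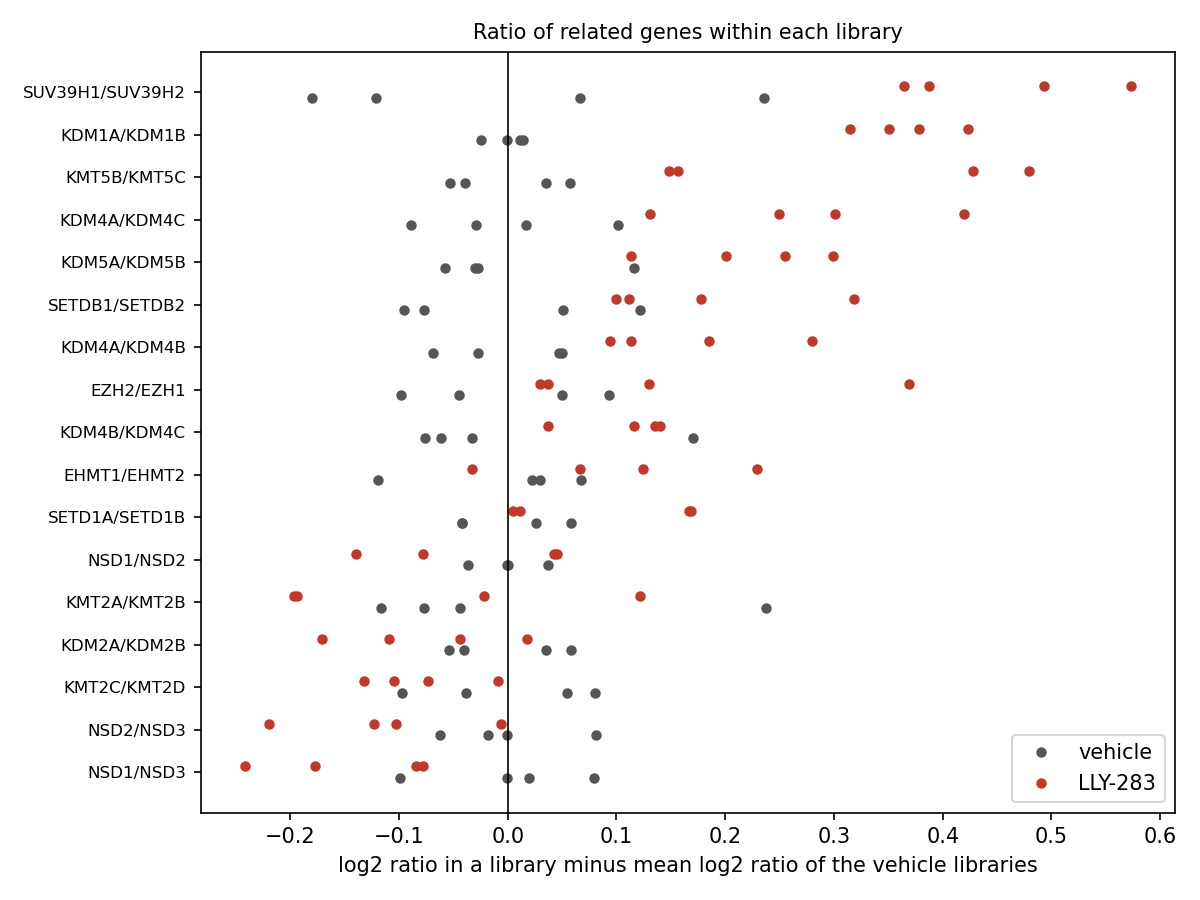
Log2 ratio of the TPM + 0.1 of paralog pairs in each library, minus the mean of the 4 vehicle libraries, with vehicle in grey and LLY-283 in red. For 5 of the 17 pairs, SUV39H1/SUV39H2, KDM1A/KDM1B, KMT5B/KMT5C, KDM4A/KDM4C and KDM4A/KDM4B, every LLY-283 point lies to the right of every vehicle point.

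Outside the 44 members, 11 other lysine methyltransferases, with histone or non-histone substrates, were tested. None rose and 5 fell (45.5%, beside 17.6% of all genes called lower), the largest decrease being that of EEF1AKMT1, a methyltransferase of translation elongation factor 1A, with 4.42 ± 0.565 TPM in vehicle and 3.24 ± 0.317 TPM in LLY-283 libraries (log2 fold change -0.43, limma adjusted p = 0.0237). The median of this list was -0.18, beside 0.02 for the 44 members and -0.05 for all genes tested. It is given as a description without a test of the list.

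The members are long genes, with a median of 22 exons and 5854.5 bases in the canonical transcript, beside 8 exons and 2915 bases for all genes tested (GENCODE release 44). Across the 44 members the Spearman correlation of the log2 fold change with exon number was 0.07, with transcript length 0.10 and with GC content 0.08. Across all genes with an annotation the values were 0.13, 0.07 and -0.02. These are descriptions across genes, which share the same 8 libraries and are not independent replicates.

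**Figure D5:**
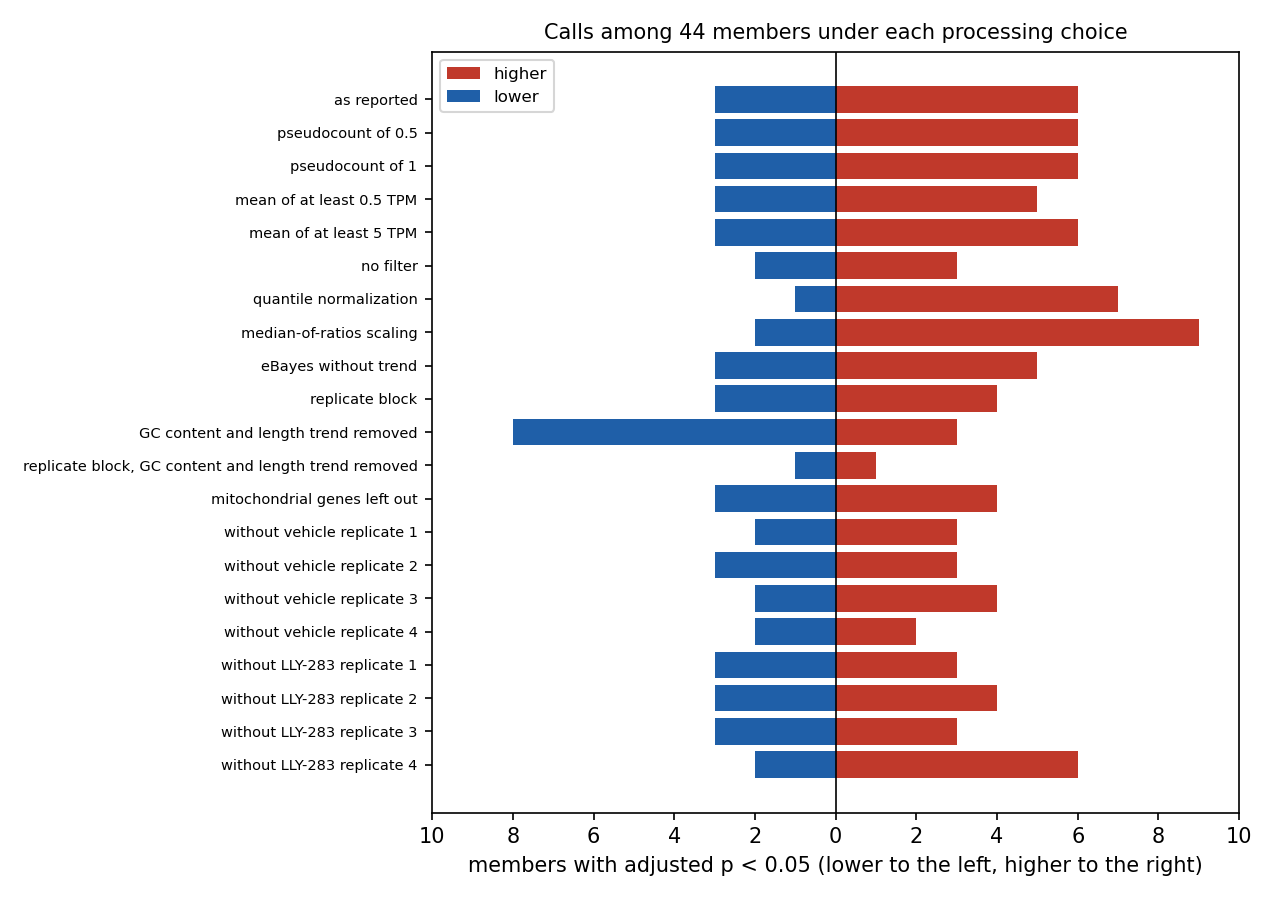
Number of the 44 genes called lower (blue, left) and higher (red, right) at an adjusted p under 0.05 as reported and under each of 20 alternatives. The counts are 6 higher and 3 lower as reported, 9 and 2 under median-of-ratios scaling, and 3 and 8 after removal of the GC and length trend.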

How the data were processed

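Wild-type U251 cells (4 vehicle and 4 LLY-283 libraries, grouped by the sample titles) were measured by RNAseq. The authors trimmed reads with Cutadapt 1.18, mapped them to GRCh38 with STAR and quantified genes of GENCODE release 41 with RSEM. The values deposited are TPM per gene and library. Their methods give RNA-seek 1.7.1, STAR 2.7.6a and RSEM 1.3.3, whereas the submitters' processing notes give STAR 2.7.0f and RSEM 1.3.1. TPM corrects for depth and length but not for library composition, and keeps no depth, so count tests could not be used. The labels call the replicates biological, and p-values measure the spread between these samples.

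LLY-283 was compared with vehicle by limma 3.58.1 (lmFit, eBayes with a trend, R 4.3.3) on log2(TPM + 0.1) for genes averaging 1 TPM or more, and p-values were adjusted over all 14478 genes by the Benjamini-Hochberg method. Fold changes on this scale understate those of low genes. Paralog ratios were tested with exact permutation tests (70 relabellings, scipy 1.17.1). On simulated data with 200 of 14478 genes changed by 1 on the log2 scale, limma recovered 175 (87.5%) with 11 other genes called. That change is larger than any of the members, which ran from -0.37 to 0.24. Recovery of changes of their size was not tested. GENCODE release 44 gave positions, exons, length and GC content and matched 14457 of the genes tested.

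The members and gene lists were chosen with earlier results of these data known. Values in every library were given for called members and for the member with the smallest p in a class without a call, and, chosen after their values were seen, for EZH2 and KMT2E. From each other list the called gene with the largest change in each direction was named, with all called glial markers, and neighbouring genes follow from their position. KDM4B was named for its groups, and KDM5C as a paralog of KDM5A, after their values were seen. Promoters were taken for the 2 largest increases and 2 largest decreases among calls without overlap. The 20 alternatives were pseudocounts of 0.5 and 1, means of at least 0.5 or 5 TPM or no filter, quantile normalization, median-of-ratios scaling, eBayes without a trend, a replicate block, removal of the GC and length trend (splines with 4 degrees of freedom), the last combined with the block, each library left out in turn, and, chosen after seeing the data, mitochondrial genes left out.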

Additional observations from a re-analysis of the deposited data

Results flagged for a closer look

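In 122 groups of 4 libraries (88 for the genes and 34 for the ratios), 7 had a highest or lowest library whose gap to its neighbour passed Dixon's critical value at the 95% level, and chance alone gives about 1 in 20. KMT2A was highest in the third LLY-283 replicate at 35.55 TPM, the next library being 31.19 TPM. KMT2D was lowest in the first vehicle replicate at 31.34 TPM, far under the next at 44.72 TPM. KMT5B was highest in the fourth vehicle replicate at 15.18 TPM. In the fourth LLY-283 replicate KDM1A was highest at 141.88 TPM and KDM2A lowest at 35.7 TPM. The KDM4B to KDM4C ratio (1.425) and the KDM5A to KDM5B ratio (0.7697) were both highest in the second vehicle replicate of their group.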

How the results depend on the processing

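The direction of all 9 called members held under the 20 alternatives, and JMJD6 and KDM1B were called in every one. The count of members called higher (6 as reported, with 8.61% of all genes) was 3 without a filter on low values (2.96%). It was 3 after removal of the GC and length trend (9.23%). With 1 library left out it was 2 to 6 (6.23% to 10.3%). The count called lower (3 as reported, with 17.6% of all genes) was 1 under quantile normalization (12.6%). It was 8 after removal of the GC and length trend (19.6%), where DOT1L, KDM4B, NSD1, NSD2 and SETD7 were added. With 1 library left out it was 2 to 3 (13.1% to 18.5%). The cause of these shifts was not tested. No member was called past 1.5-fold under any of the 20 alternatives. The sign changed under at least 1 alternative for 9 members, none of them called under any, with log2 fold changes between -0.16 and 0.15. The log2 KMT2A/KMT2B ratio difference ran from -0.1374 to 0.006537 and that of NSD1/NSD2 from -0.05803 to 0.003405 when 1 library was left out. Same-numbered vehicle and LLY-283 libraries did not deviate together (r of -0.041, 0.032, -0.0016 and -0.085), so the numbers were not taken as pairs. A replicate block gave 4 higher and 3 lower, without SETD1A and KDM5A (7.56% and 15.2% of all genes). The block with the GC and length trend removed gave 1 and 1, JMJD6 and KDM1B (6.55% and 14.1% of all genes). TPM gives no depth, so the precision of low genes such as KDM7A and SETDB2 is limited by 4 libraries per group.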
